A study of Rattus norvegicus with 8 samples.

Results

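The angiopoietin, VEGF receptor and endothelial genes are a set of 10: the VEGF receptors Kdr, Flt1 and Flt4, the Tie receptors Tek and Tie1, the angiopoietins Angpt1 and Angpt2, and the endothelial surface and junction genes Emcn, Cdh5 and Esam. They were taken by symbol from the deposited count table. All 10 of 10 were among its 29884 gene symbols, and all 10 passed the filter on low counts. The libraries came from the cervix of wild-type pregnant Sprague-Dawley rats. Each animal received an intraperitoneal injection on gestational day 17, and the tissue was taken 12 hours later. The LPS group (4 libraries) received lipopolysaccharide, the bacterial cell wall component endotoxin, at 100 µg/kg, and the PBS group (4 libraries) received an equal volume of phosphate-buffered saline. The age of the animals is not given in the sources used here, and whole tissue was sequenced, so endothelial cells were only a fraction of the cells in each library.

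Vascular endothelial growth factors (VEGFs) act on blood and lymphatic vessels through receptor tyrosine kinases: VEGFR2, encoded by Kdr, carries the main growth signal, VEGFR1 (Flt1) binds VEGF-A tightly and can act as a decoy, and VEGFR3 (Flt4) serves mostly lymphatic vessels. Angiopoietin-1, made largely by cells that surround the vessel, activates the receptor Tie2 (Tek) and keeps the endothelium quiet, while angiopoietin-2, released by endothelial cells, mostly opposes it. Tie1 is a partner of Tie2 with no firmly established ligand among the angiopoietins. VE-cadherin (Cdh5) and Esam hold endothelial cells together, and endomucin (Emcn) is a sialomucin that covers the luminal face of veins and capillaries and hinders leukocyte attachment.

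12 hours after LPS, Angpt1 rose and Emcn fell, and the other 8 members did not pass the test. Angpt1 was 1.90 times as high, and Emcn was at 56.2% of its PBS level. Tek was at 60.0% of its PBS level and narrowly missed the threshold. Tek, Kdr, Flt1, Flt4, Tie1, Cdh5, Esam and Angpt2 overlapped between the groups. Over all 16117 genes tested, 9.49% were called higher and 7.45% lower, or 16.9% in either direction, so 2 of 10 called members is near the background. The median log2 fold change of the members was -0.16, beside 0.01 over all genes tested. In bulk tissue, fewer endothelial cells and less RNA per cell cannot be told apart.

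The 8 libraries held 33191039 to 40634384 counts each, and 3 counts corresponded to 0.0734 to 0.0899 CPM (the library-scaled count rate used throughout, normalized by TMM). No 2 libraries of a group were alike within counting error (chi-square divided by its degrees of freedom, 58.1 or more). The PBS libraries differed strongly from each other in endothelial transcripts. PBS replicate 1 held the highest level of 9 of the 10 members among the PBS libraries, and PBS replicate 4 the lowest of 9. The summed level of the 10 members was 626.0 CPM in PBS replicate 1, 434 in replicate 2, 362 in replicate 3 and 272 in replicate 4, and lay between 314 and 441 CPM in LPS. The summed level of 8 smooth muscle markers also ran from 3911 CPM in PBS replicate 4 to 9927 CPM in PBS replicate 1. The part of tissue composition in these differences was not tested. Results were therefore also computed without these libraries.

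The upstream sequence of 5 of the 10 members was listed in the RefSeq promoter table (build GRCr8; the counts were made on mRatBN7.2), and the 250 bases before the annotated start are shown for 4 of them: Kdr, Flt1 and Tie1, whose levels moved together from library to library, and Emcn, which fell. Capitals mark matches, on either strand, to 5 short motifs. The ETS motif searched was CCGGAA. The forkhead motif was spelled GTAAACA. For zinc finger factors of the endothelium, the letters GATAAG were used. The KLF family was represented by CCACCC, and the fifth motif was the NF-kB consensus.
Kdr, chr14:32571813-32572062, plus strand: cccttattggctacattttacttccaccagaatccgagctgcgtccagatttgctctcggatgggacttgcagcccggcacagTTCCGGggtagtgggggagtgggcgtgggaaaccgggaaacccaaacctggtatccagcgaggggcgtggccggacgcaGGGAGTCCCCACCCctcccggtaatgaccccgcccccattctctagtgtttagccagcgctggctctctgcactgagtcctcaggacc
Flt1, chr12:12333180-12333429, plus strand: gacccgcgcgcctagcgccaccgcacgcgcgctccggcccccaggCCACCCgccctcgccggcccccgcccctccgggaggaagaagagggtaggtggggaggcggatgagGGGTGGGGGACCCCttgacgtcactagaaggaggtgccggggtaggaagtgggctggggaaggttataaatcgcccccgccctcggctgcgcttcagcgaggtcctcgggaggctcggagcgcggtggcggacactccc
Tie1, chr5:137304982-137305231, minus strand: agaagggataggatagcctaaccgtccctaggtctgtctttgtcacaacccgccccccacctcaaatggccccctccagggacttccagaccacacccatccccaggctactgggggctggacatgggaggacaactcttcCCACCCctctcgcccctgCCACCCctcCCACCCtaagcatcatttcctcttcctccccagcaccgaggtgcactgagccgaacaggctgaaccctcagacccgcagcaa
Emcn, chr2:228564289-228564538, plus strand: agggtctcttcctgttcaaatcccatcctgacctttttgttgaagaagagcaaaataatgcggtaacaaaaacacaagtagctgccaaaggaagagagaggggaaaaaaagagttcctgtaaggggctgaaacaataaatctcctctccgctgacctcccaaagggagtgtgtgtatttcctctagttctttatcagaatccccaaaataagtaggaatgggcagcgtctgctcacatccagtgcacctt
The Kdr window held 1 ETS match, and an NF-kB match that overlaps a KLF match. The Flt1 window held 2 KLF matches, 1 of which overlaps an NF-kB match, and the Tie1 window held 3 KLF matches. The Emcn window held none of the 5 motifs. Over 33469 windows of the same length, 12.6% held the ETS motif, 26.1% the KLF motif, 3.54% the NF-kB consensus, 6.18% the zinc finger motif and 3.21% the forkhead motif. A match is a description of the letters and not a site of binding. The windows were rich in G and C for Kdr (61.6%), Flt1 (73.2%) and Tie1 (61.6%), and less so for Emcn (44.4%).

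Of the angiopoietins among the members, Angpt1 rose and Angpt2 was not called. Angpt1 held 4.88, 4.83, 5.35 and 4.80 CPM in PBS replicates 1 to 4, and 6.79, 8.75, 12.1 and 10.2 CPM in LPS replicates 1 to 4. The 4 LPS libraries all lay above the highest PBS library, while the PBS libraries were nearly level. The mean rose from 4.96 ± 0.259 to 9.45 ± 2.23 CPM (SD, n = 4 per group). This was 0.93 as a log2 fold change (SE 0.18, adjusted p = 0.0118, edgeR quasi-likelihood test with Benjamini-Hochberg adjustment). The groups did not overlap for 23.4% of all genes tested, 12.9% with LPS higher and 10.5% with LPS lower. The log2 fold change was 0.79 to 1.06 with any single library left out, and passed the threshold each time. Without both PBS replicate 1 and PBS replicate 4 (added once the values were known) the value was 0.89 and the call was lost (adjusted p = 0.0868).

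Angpt1 is a product of mural and stromal cells rather than of endothelium, and the markers of those cells were compared beside it. Over all genes tested, 9.49% were called higher and 7.45% lower. Of 8 fibroblast markers, 4 rose and 0 fell, and their summed level was 12252 to 15406 CPM in PBS and 17119 to 27159 CPM in LPS. Decorin (Dcn), lumican (Lum) and the PDGF receptor Pdgfra had log2 fold changes of 1.47, 1.95 and 1.26. The 4 fibroblast markers not called, named here after their values were seen, were Col1a1 (0.17), Col1a2 (0.25), Dpt (-0.26) and Pi16 (-0.48). The sums are mostly Col1a1, Col1a2 and Col3a1, with PBS means of 5303, 3197 and 3585 CPM. Of 8 pericyte markers, 0 rose and 2 fell, with sums of 399 to 649 CPM in PBS and 401 to 535 CPM in LPS. Those that fell were Notch3 and Rgs5 (-0.58 and -0.83, adjusted p = 0.0412 and 0.0498). Named here after their values were seen, Pdgfrb, Higd1b and Kcnj8 had positive values (0.62, 0.78 and 0.57). They were not called (edgeR adjusted p of 0.0507, 0.117 and 0.385), and the other 5 pericyte markers had negative values. Notch3 was not called without any one of 6 libraries, all but PBS replicate 4 and LPS replicate 1, and Rgs5 was not called without any one of 7, all but PBS replicate 4. The part of these cells in the rise of Angpt1 was not tested.

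Angpt2, the antagonist, varied widely within both groups. It held 11.3, 8.76, 5.32 and 5.61 CPM in PBS replicates 1 to 4 and 11.6, 5.12, 18.5 and 7.78 CPM in LPS replicates 1 to 4. LPS replicate 3 was the highest and LPS replicate 2 the lowest of all 8 libraries, so the groups overlapped. The log2 fold change was 0.47 (SE 0.41, adjusted p = 0.461), and it was 0.07 without LPS replicate 3. On the log2 scale, Angpt2 minus Angpt1 within a library was 0.57 ± 0.56 in PBS and 0.06 ± 0.75 in LPS (SD, n = 4 per group). That balance did not differ beyond its spread (difference -0.51, exact two-sided permutation p = 0.314, adjusted p = 0.454). With a single library left out it ran from -0.75 (LPS replicate 1) to -0.24 (LPS replicate 2), and it was -0.30 with PBS replicate 1 removed.

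**Figure D1:**
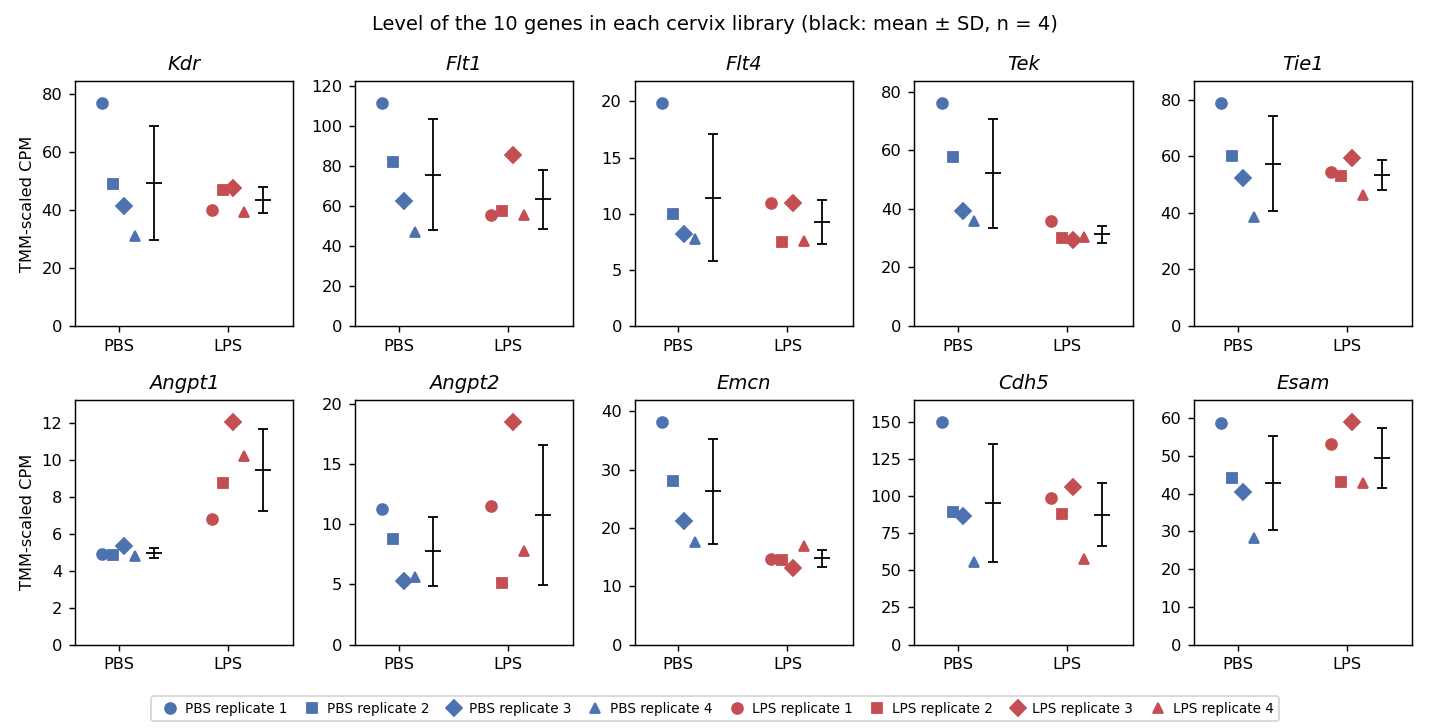
TMM-scaled CPM of each of the 10 genes (vertical axes, from 0, 1 scale per gene) in the 4 PBS (blue) and 4 LPS (red) libraries, with the marker shape giving the replicate number and black bars the mean ± SD. The LPS points of Angpt1 all lie above the PBS points and those of Emcn all lie below, while PBS replicate 1 tops the PBS group for 9 genes.

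The VEGF receptors did not pass the test. Kdr held 76.8, 48.8, 41.2 and 30.9 CPM in PBS replicates 1 to 4 and 39.9, 46.8, 47.5 and 39.2 CPM in LPS replicates 1 to 4. All 4 LPS libraries lay inside the PBS range, and the log2 fold change was -0.19 (SE 0.25, adjusted p = 0.638). Flt1 held 111, 81.9, 62.2 and 47.1 CPM in PBS and 55.3, 57.4, 85.5 and 55.5 CPM in LPS, again inside the PBS range (-0.25, SE 0.26, adjusted p = 0.544). The counts are per gene, so the soluble and membrane forms of VEGFR1 are not separated. Flt4, the lymphatic receptor, held 7.76 to 19.8 CPM in PBS and 7.5 to 10.9 CPM in LPS (-0.31, SE 0.32, adjusted p = 0.539). Without PBS replicate 1 the values of Kdr and Flt4 turned to 0.10 and 0.09, and that of Flt1 was -0.01. Flt1 minus Kdr within a library was 0.62 ± 0.09 in PBS and 0.53 ± 0.23 in LPS, a log2 difference of -0.09 (exact two-sided permutation p = 0.457, n = 4 per group; adjusted p = 0.594), and it ran from -0.20 (LPS replicate 3) to -0.02 (LPS replicate 2) with a single library left out.

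Both Tie receptors belong to the same small kinase family, and their values differed. Tek held 76.1, 57.8, 39.4 and 35.7 CPM in PBS replicates 1 to 4 and 35.7, 30.0, 29.2 and 30.5 CPM in LPS replicates 1 to 4. Of the 4 LPS libraries, 3 lay below the lowest PBS library, and LPS replicate 1 lay level with PBS replicate 4. The log2 fold change of Tek was -0.74 (SE 0.23, adjusted p = 0.0574), from means of 52.3 ± 18.6 to 31.4 ± 2.96 CPM (SD, n = 4 per group). Tek was called lower without PBS replicate 4 (-0.88, adjusted p = 0.0302) and with DESeq2. Tie1 held 38.4 to 78.7 CPM in PBS and 46.4 to 59.3 CPM in LPS, entirely inside the PBS range (-0.11, SE 0.20, adjusted p = 0.749), and its value was 0.08 without PBS replicate 1.

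The balance of the Tie receptors was therefore compared within each library. Tie1 minus Tek on the log2 scale was 0.05, 0.05, 0.41 and 0.10 in PBS replicates 1 to 4 and 0.61, 0.82, 1.02 and 0.60 in LPS replicates 1 to 4. The 4 LPS libraries all lay above the PBS libraries. The difference was 0.61 (SE 0.13), or 1.53-fold, with an exact two-sided permutation p of 0.0286, the smallest that 4 libraries against 4 can give. The adjusted p over the family of 13 such differences was 0.124, so the shift did not pass the correction. No single difference could pass it alone, since most of the 13 would have to reach the smallest p together. It was 0.52 to 0.69 with any single library left out and 0.53 without both PBS replicate 1 and PBS replicate 4.

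Of the endothelial surface and junction genes, Emcn fell. It held 38.2, 28.1, 21.2 and 17.7 CPM in PBS replicates 1 to 4 and 14.6, 14.5, 13.1 and 16.8 CPM in LPS replicates 1 to 4. The 4 LPS libraries all lay below the lowest PBS library, although PBS replicate 4 and LPS replicate 4 were close. The mean fell from 26.3 ± 9.06 to 14.8 ± 1.52 CPM, which is -0.83 in log2 (SE 0.23, adjusted p = 0.0375, edgeR, n = 4 per group). The call was lost without PBS replicate 2 or any one of the 4 LPS libraries (adjusted p of 0.0546 to 0.0983, with log2 fold changes of -0.90 to -0.78), with limma-voom, and when PBS replicate 1 and LPS replicate 2 were both removed. It was kept without PBS replicate 1 (-0.60), PBS replicate 3 (-0.92) or PBS replicate 4 (-0.98), and without both PBS replicate 1 and PBS replicate 4 (-0.74, adjusted p = 0.0413).

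The adhesion genes gave no call. Cdh5 held 55.9 to 150 CPM in PBS and 57.9 to 106 CPM in LPS (-0.12, SE 0.30, adjusted p = 0.807). Its value turned to 0.18 without PBS replicate 1 and to 0.03 without LPS replicate 4. Esam held 28.1 to 58.6 CPM in PBS and 42.7 to 59.0 CPM in LPS, with 1 LPS library above the PBS range (0.21, SE 0.21, adjusted p = 0.537). Its value was 0.05 with PBS replicate 4 removed, 0.39 with PBS replicate 1 removed and 0.11 with LPS replicate 3 removed.

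**Figure D2:**
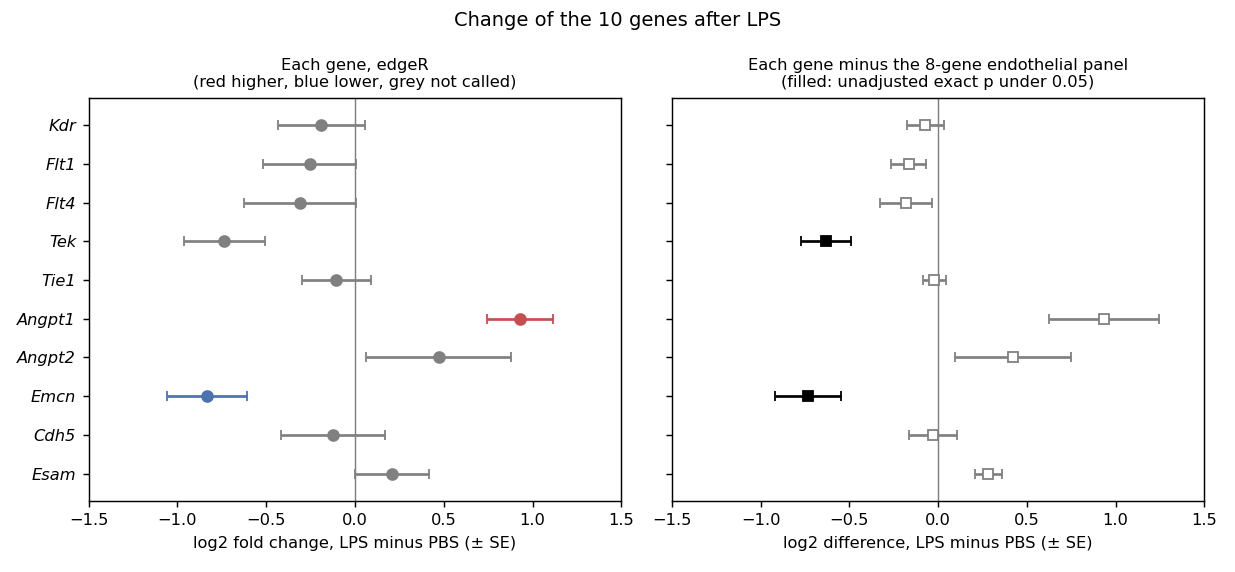
Change of each gene after LPS on the log2 scale with its SE: the edgeR fold change (left) and the change after subtracting the mean log2 CPM of 8 other endothelial genes (right). Angpt1 (0.93) and Emcn (-0.83) are called on the left, and on the right Tek (-0.63) and Emcn (-0.73) have an unadjusted exact p under 0.05.

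Because the amount of endothelial transcript differed between the PBS libraries, each member was also set against a panel of 8 other endothelial genes of the same library: Pecam1, Egfl7, Eng, Erg, Robo4, Clec14a, Icam2 and Mmrn2. The mean log2 CPM of this panel was 6.07, 5.61, 5.26 and 4.97 in PBS replicates 1 to 4 and 5.49, 5.37, 5.71 and 5.16 in LPS replicates 1 to 4. Its group means were 5.48 ± 0.47 and 5.43 ± 0.23 (difference -0.04, exact two-sided permutation p = 0.886, n = 4 per group). The panel thus spanned more within PBS than between the group means. Its 8 genes had edgeR log2 fold changes from -0.49 (Mmrn2) to 0.51 (Eng), and none was called. Outside the panel, and named here after their values were seen, Plvap, Cd34 and Mcam had -0.97, -0.88 and -0.62, while Ecscr and Vwf had 0.71 and 0.53. None of these was called. Differences relative to the panel can therefore depend on which genes form it. Relative to the panel, the PBS libraries drew together for 9 of the 10 members: the SD of Emcn over the 4 PBS libraries was 0.49 in log2 CPM and 0.03 relative to the panel, and that of Kdr was 0.55 and 0.10. Angpt1 was the exception, with an SD of 0.07 alone and 0.49 relative to the panel. In LPS, the SD was smaller relative to the panel for 6 of the 10 members, and for Emcn it was larger, at 0.15 alone and 0.37 relative to the panel.

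Relative to the panel, Tek and Emcn were lower in every LPS library than in any PBS library. Tek minus the panel was 0.19, 0.25, 0.04 and 0.19 in PBS replicates 1 to 4 and -0.33, -0.46, -0.84 and -0.23 in LPS replicates 1 to 4, a log2 difference of -0.63 (SE 0.14). Emcn minus the panel was -0.81, -0.79, -0.85 and -0.82 in PBS and -1.62, -1.5, -1.99 and -1.09 in LPS, a difference of -0.73 (SE 0.19). In both, LPS replicate 3 lay lowest and LPS replicate 4 nearest to PBS. Each had an exact two-sided permutation p of 0.0286 (n = 4 per group) and an adjusted p of 0.124 over 13 differences. At the unadjusted 0.05 threshold 2 of the 10 members passed this permutation test, and after adjustment 0 did. That 0 was nearly fixed beforehand, since most of the 13 differences would have had to reach 0.0286 together. For comparison, the groups did not overlap in CPM for 23.4% of all genes tested, so 2 of 10 is not above that share. The share of all genes that separate relative to the panel was not computed.

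The other members kept closer to the panel or varied more. Tie1 minus the panel changed by -0.02 (SE 0.06), Cdh5 by -0.03 (SE 0.14) and Kdr by -0.07 (SE 0.10), with exact permutation p-values of 0.771, 0.857 and 0.514 (n = 4 per group). Esam stood 0.28 higher relative to the panel (SE 0.07, exact permutation p = 0.0571, adjusted p = 0.149), with 3 of the 4 LPS libraries above the highest PBS library. Angpt1 stood 0.93 higher (SE 0.31, exact permutation p = 0.0571, adjusted p = 0.149). With any single library left out, the difference of Tek lay within -0.71 to -0.51 and that of Emcn within -0.89 to -0.58.

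**Figure D3:**
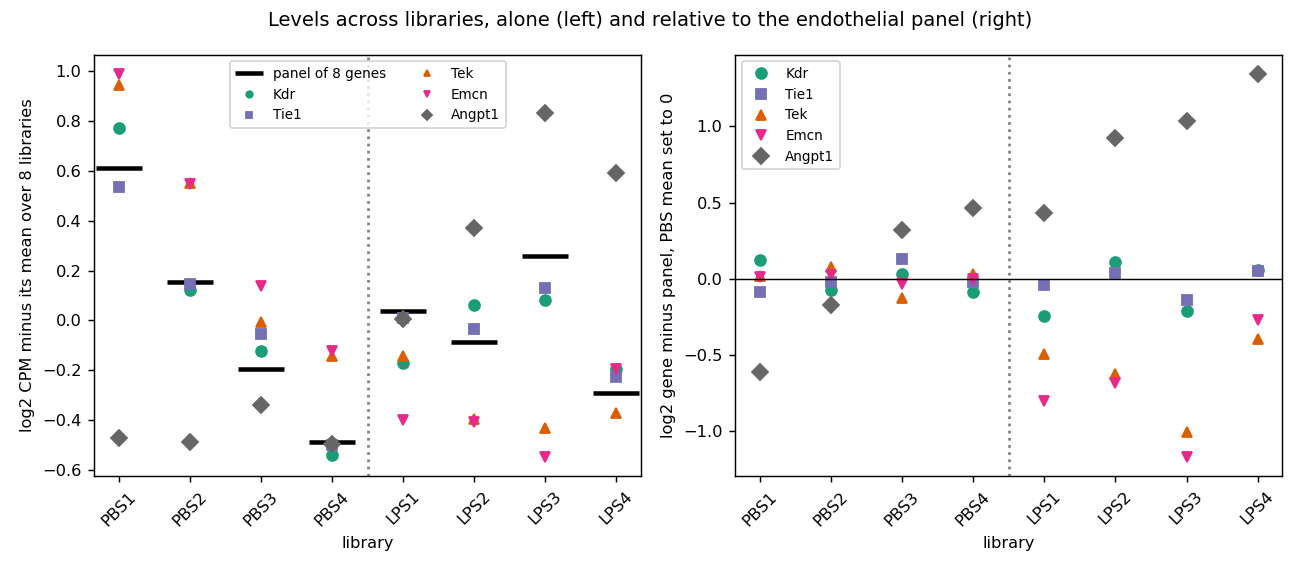
Log2 CPM of the endothelial panel (black bars) and of 5 genes in each library, centred on the 8-library mean (left), and log2 gene minus panel with the PBS mean set to 0 (right). On the right the PBS points of Kdr, Tie1, Tek and Emcn gather near 0, the LPS points of Tek and Emcn lie below them, and Kdr and Tie1 stay near 0.

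The likeness of the members to each other was measured as the root mean square difference of log2 CPM over the 8 libraries, each gene centred on its mean. Among the 10 members, Kdr and Tie1 lay closest (0.12), followed by Tek and Emcn (0.13) and by Kdr and Flt1 (0.16). Angpt1 lay farthest from Emcn (0.92) and Tek (0.90). Among 14331 other genes averaging 1 CPM or more, the 3 nearest to Tek were Dipk2b (0.05), Fzd4 (0.09) and Emcn, and the 3 nearest to Emcn were Cav1 (0.10), Fbp2 (0.12) and Fzd4 (0.13). Cav1 and Fzd4 were themselves called lower, with log2 fold changes of -0.91 (adjusted p = 0.0135) and -0.83 (adjusted p = 0.0469). Nearest to Kdr were Cd93 (0.06), Rasip1 (0.09) and Nid1 (0.10). Nearest to Flt1 were Gpr4, Rasl11b and Robo4, and nearest to Flt4 were Kank3, Il15 and Adcy1. Tie1 lay nearest to Fli1, Nid1 and Epas1, Cdh5 to Pde2a, Pcdh19 and Pecam1, and Esam to Gimap8, Epb41l2 and Fads3. Angpt1 lay nearest to Tcirg1, Ddit3 and Akna (0.11 to 0.13), and no gene came closer to Angpt2 than Bcl6b (0.25), before LOC102555554 and Rasl12.

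Of the 7 VEGF ligands and co-receptors, 1 rose and 0 fell (median 0.41, beside 0.01 over all genes tested). With 9.49% of all genes tested called higher, 1 of 7 is near the background. The gene that rose was Vegfd, a ligand of VEGFR3 made by stromal cells, which held 11.8, 8.32, 9.66 and 4.26 CPM in PBS replicates 1 to 4 and 25.5, 35.5, 41.9 and 18.8 CPM in LPS replicates 1 to 4. All 4 LPS libraries lay above the PBS range (1.84, SE 0.34, adjusted p = 0.00915). Vegfa, the main ligand of VEGFR2, held 102 to 171 CPM in PBS and 103 to 286 CPM in LPS (0.41, SE 0.32, adjusted p = 0.421), and its value was 0.10 without LPS replicate 4. Vegfb had a value of 0.54 (adjusted p = 0.0665), and passed without PBS replicate 1 (0.67, adjusted p = 0.0347). The co-receptor Nrp2 had 0.46 (adjusted p = 0.0783), and passed without LPS replicate 2 (0.56, adjusted p = 0.0387). The ligands Vegfc and Pgf and the co-receptor Nrp1 had values of 0.08, -0.21 and -0.01 (adjusted p of 0.726 to 0.986). With a single library left out, that of Pgf ran from -0.42 (PBS replicate 4) to -0.0009 (PBS replicate 1). That of Vegfc was -0.003 without PBS replicate 4. That of Nrp1 was 0.24 without PBS replicate 1, and it was also above 0 when PBS replicate 2 was removed, and likewise LPS replicate 1 or 4.

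Of 10 genes grouped here as partners of the angiopoietin and Tie pathway, 3 rose and 5 fell (median -0.48). The shares over all genes tested were 9.49% higher and 7.45% lower. Ptprb, the endothelial phosphatase VE-PTP that removes phosphate from Tie2, held 206, 177, 135 and 129 CPM in PBS replicates 1 to 4 and 83.5, 100.1, 61.4 and 66.9 CPM in LPS replicates 1 to 4 (-1.05, SE 0.20, adjusted p = 0.00993). Klf2 and Klf4, transcription factors of quiescent endothelium, fell, with log2 fold changes of -0.996 and -0.81 (adjusted p = 0.0109 and 0.00957), and thrombomodulin (Thbd), an anticoagulant receptor of the vessel wall, fell by 0.80 (adjusted p = 0.00939). For these 4 genes the LPS libraries all lay below the PBS libraries, and the calls held with any single library left out. Klf2 lost its call without both PBS replicate 1 and PBS replicate 4. Klf2 held 59.1, 44.8, 36.3 and 56.3 CPM in PBS replicates 1 to 4, and Klf4 held 379, 535, 493 and 642 CPM. The endothelial panel was instead highest in PBS replicate 1 and lowest in PBS replicate 4. The part of cells other than endothelium in the fall of Klf2 was not tested. Klf4 is also made in squamous epithelium, whose keratin Krt13 fell by 4.53 (adjusted p = 0.000846), and the part of that epithelium was not tested. Foxo1, a transcription factor held in check by Tie2 signalling, fell by 0.71 (adjusted p = 0.0257). Removing PBS replicate 1, PBS replicate 2, LPS replicate 3 or LPS replicate 4 raised its adjusted p to between 0.0507 and 0.0736.

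Of the partners that rose, Svep1, a matrix protein described as a ligand of Tie1, held 50.1, 51.7, 41.6 and 35.2 CPM in PBS replicates 1 to 4 and 147, 146, 142 and 116 CPM in LPS replicates 1 to 4. The groups lay far apart (1.62, SE 0.14, adjusted p = 0.000484), and the value was 1.52 to 1.70 with any single library left out. The adaptor Dok2 rose by 0.60 (adjusted p = 0.0302) and Tnip2, which limits NF-kB signalling, by 0.78 (adjusted p = 0.0470). Both are also expressed by leukocytes. Dok2 lost its call when any library but PBS replicate 1 or LPS replicate 2 was removed, and Tnip2 when any library but LPS replicate 1 or LPS replicate 2 was removed. Removing PBS replicate 2, PBS replicate 3, PBS replicate 4, LPS replicate 3 or LPS replicate 4 left 1 gene of the list that rose. Gata2 had a value of -0.26 (adjusted p = 0.058) and passed without LPS replicate 2 (-0.31, adjusted p = 0.0408). The third angiopoietin, Angpt4, had 0.16 (adjusted p = 0.496).

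**Figure D4:**
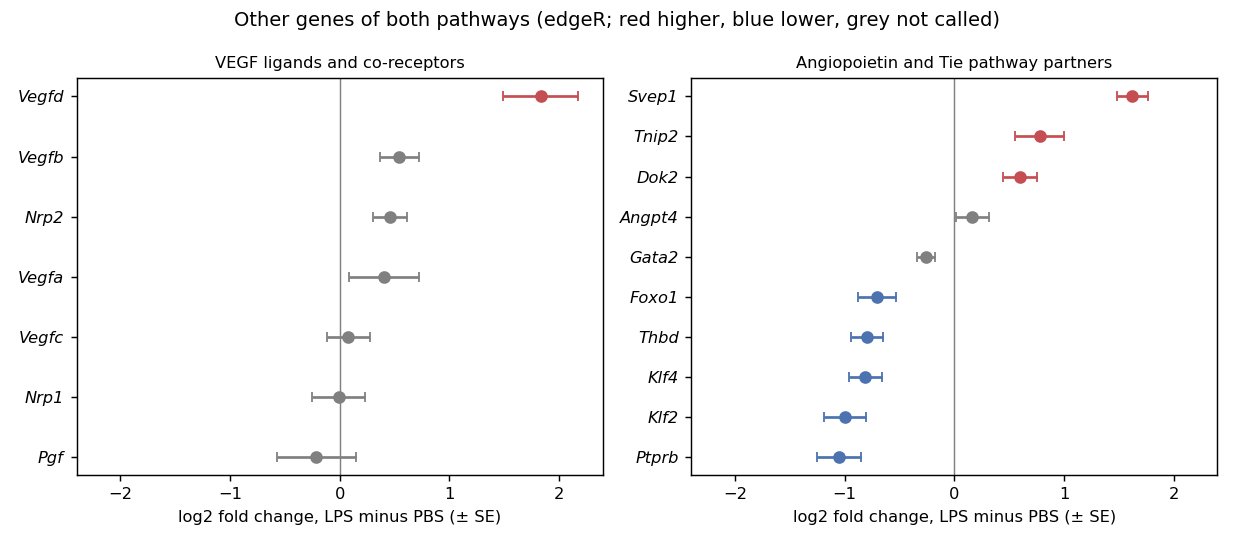
Log2 fold change with its SE for the 7 VEGF ligands and co-receptors (left) and the 10 genes grouped here as angiopoietin and Tie pathway partners (right). Vegfd (1.84) and Svep1 (1.62) lie farthest to the right, and Ptprb (-1.05) farthest to the left.

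Other endothelial markers gave few calls. Of 25, 0 rose and 3 fell with edgeR, 19 had a negative log2 fold change, and the median was -0.28. At most 2 rose with a single library left out, named here after their values were seen: Eng and Ecscr without PBS replicate 1 (0.72 and 0.91), and Vwf without PBS replicate 2 (1.07). DESeq2 called 1 higher and 7 lower, and limma-voom 1 higher. The genes that fell were Ptprb, the tight junction claudin Cldn5 (-0.81, adjusted p = 0.0242) and the transcription factor Sox7 (-0.82, adjusted p = 0.045). Sox7 held 99.7, 179, 98.0 and 171 CPM in PBS replicates 1 to 4, unlike the endothelial panel, which was highest in replicate 1 and lowest in replicate 4. The part of cells other than endothelium in the fall of Sox7 was not tested. The call of Cldn5 did not survive the removal of PBS replicate 2, LPS replicate 3 or LPS replicate 4, and that of Sox7 without any one of 6 libraries, all but PBS replicates 1 and 3. Under the same 3 removals the count of genes that fell was 1. At an unadjusted p under 0.05, 2 markers were higher and 9 lower. The share of all genes below that threshold was not computed, but it is at least the 9.49% higher and 7.45% lower called after adjustment.

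Of 18 tip cell, Notch, arterial and venous genes, 1 rose and 4 fell (median -0.18). Among all genes tested, 9.49% were called higher and 7.45% lower. Unc5b, a netrin receptor of tip cells and arteries, fell from 103 ± 36.0 to 32.6 ± 9.99 CPM (-1.66, SE 0.29, adjusted p = 0.00747, edgeR, n = 4 per group). Among the PBS libraries it was highest in replicate 2 (151 CPM) and lowest in replicate 3 (70.6 CPM). The endothelial panel was instead highest in PBS replicate 1 and lowest in PBS replicate 4. The part of cells other than endothelium in the fall of Unc5b was not tested. Hey2, a Notch target of arteries, fell by 0.77 (adjusted p = 0.0253), and was called only while PBS replicates 2 and 3 and LPS replicates 2, 3 and 4 were all included. The potassium channel subunit Kcne3 rose from 6.66 ± 2.15 to 23.3 ± 7.90 CPM (1.81, SE 0.30, adjusted p = 0.00552). With any single library left out, 1 to 3 of these genes fell, and the count was at most 2 when PBS replicate 2, PBS replicate 3 or an LPS library was the one removed.

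Of 10 genes known to be induced in activated endothelium, 8 rose and 0 fell, with a median of 1.74. The share called higher over all genes tested was 9.49%. The list holds adhesion molecules and chemokines that capture leukocytes, and also Csf3, Ch25h and Tnfaip3, which do not. Icam1, the ligand of leukocyte integrins, held 35.4 to 45.9 CPM in PBS and 92.5 to 162 CPM in LPS (1.63, SE 0.17, adjusted p = 0.000998). The chemokine Cxcl10 held 5.01 to 16.5 CPM in PBS and 57.4 to 158 CPM in LPS (3.55, SE 0.45, adjusted p = 0.00196), and Tnfaip3, an inhibitor of NF-kB signalling, rose by 2.19 (adjusted p = 0.0023). Leukocytes and stromal cells also make these transcripts. Of 8 macrophage and monocyte markers 6 rose, with sums of 616 to 946 CPM in PBS and 1249 to 1898 CPM in LPS. Of 8 neutrophil markers 5 rose, with sums of 36.1 to 62.4 CPM in PBS and 358 to 1533 CPM in LPS. The part of those cells was not tested. At an unadjusted p under 0.05 in edgeR, 0 of the VEGF, activation, fibroblast, macrophage and neutrophil genes were lower, 2 of the pericyte markers were higher, and 0 of the smooth muscle and red cell markers were higher. The share of all genes below that unadjusted threshold was not computed.

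Lymphatic markers moved both ways. Of 8, 1 rose and 2 fell (median -0.70), beside 9.49% higher and 7.45% lower over all genes tested. Pdpn, podoplanin, which fibroblasts also carry, held 32.6 to 38.2 CPM in PBS and 151 to 284 CPM in LPS (2.49, SE 0.20, adjusted p = 0.0004). Lyve1, a hyaluronan receptor shared with macrophages, fell by 1.01 (adjusted p = 0.0166), and missed the threshold once PBS replicate 2 was removed (adjusted p = 0.0538). Mmrn1 fell by 0.70 (adjusted p = 0.0433), and missed it once any of PBS replicates 1, 2 or 3 or LPS replicates 1 or 3 was removed. The count of genes that fell was then 0 for PBS replicate 2 and 1 for the other 4 libraries. Prox1, the defining factor of lymphatic endothelium, was low in both groups (0.764 ± 0.175 CPM in PBS and 0.461 ± 0.206 CPM in LPS, n = 4 per group).

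Markers of blood and of muscle were also lower in LPS, with counts that depended on single libraries. For comparison with the counts below, 7.45% of all genes tested were called lower and 9.49% higher. Of 8 tested red cell markers, 6 fell and 0 rose, with sums of 737 to 2289 CPM in PBS and 124 to 680 CPM in LPS. That count was 0 with PBS replicate 2 removed, 1 with LPS replicate 1 or LPS replicate 4 removed, 4 with PBS replicate 4 removed, and 0 with PBS replicates 1 and 4 both removed. Of 8 smooth muscle markers, 5 fell and 0 rose, with sums of 3911 to 9927 CPM in PBS and 3307 to 4923 CPM in LPS. This count was 0 with PBS replicate 2, PBS replicate 3, LPS replicate 1 or LPS replicate 3 removed, 1 with PBS replicate 1 or LPS replicate 2 removed, 3 with LPS replicate 4 removed and 8 with PBS replicate 4 removed. In a cervix, smooth muscle belongs to the wall of the organ as well as to vessels. The part of both in the lower values of Emcn and Tek was not tested. The 8 cervix markers, among them the progesterone receptor Pgr and the oxytocin receptor Oxtr, were present in every library, with sums of 468 to 559 CPM in PBS and 473 to 671 CPM in LPS; 1 rose and 2 fell. Of 7 epithelial markers, 1 fell, and their sums were 7006 to 11622 CPM in PBS and 5082 to 6483 CPM in LPS.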

How the data were processed

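RNA of 8 rat cervix libraries, 4 per group, was sequenced. Per the labels' protocols, TRIzol was used for total RNA and the VAHTS Universal V6 kit for the libraries. The authors deposited 1 table of whole-number counts per gene symbol. The build mRatBN7.2 and the tools HTSeq, HISAT2, fastp and R 3.2.0 are listed, without roles, per the submitters' processing notes. Neither strand setting nor annotation is given in the sources used here, and transcripts that overlap or run antisense to each other may share reads.

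Of 29884 symbols, 16117 passed edgeR's filterByExpr. Counts were scaled by TMM and tested with edgeR 4.0.16 (R 4.3.3; robust quasi-likelihood F test, all 8 libraries, no covariate), with Benjamini-Hochberg adjustment over all genes tested and a threshold of 0.05. The SE is the absolute log2 fold change over the square root of F. Levels are TMM-scaled CPM. Within-library differences used log2 CPM with a prior count of 2 and an exact two-sided permutation test over libraries (70 arrangements), adjusted over 13 differences. The procedure was tested on simulated data. Groups came from the treatment labels, and the series text calls the libraries biological replicates. Depth per library was 33191039 to 40634384 counts, and counting error is small beside the spread between libraries. Levels were not compared between genes, since transcript lengths were not used here.

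All members are described. From each other list, the text names the genes called with the smallest adjusted p, at most 3, except the VEGF ligands and the Tie partners, which are described in full, the blood, muscle, leukocyte and cervix lists, given mainly by counts and sums, and genes said to be named after their values were seen. Jag1 and Pdgfb, called lower, are left to the count. The members and lists were chosen with earlier results of these data known. Alternatives were DESeq2 1.42.0, limma 3.58.1 (voom, with and without sample weights), other scalings and filters, a replicate block, another panel or prior count, and leaving out libraries. Leaving out both PBS replicate 1 and PBS replicate 4 was added after seeing the data.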

Additional observations from a re-analysis of the deposited data

Results flagged for a closer look

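In 4 of 54 groups of 4 libraries checked, over 27 genes, the highest or lowest library lay apart from the other 3 by Dixon's criterion at the 95% level, and chance alone gives about 1 group in 20. Flt1 held 85.5 CPM in LPS replicate 3, with the next LPS library at 57.4 CPM (gap 0.931 of the group's range). Angpt1 held 5.35 CPM in PBS replicate 3, with the next PBS library at 4.88 CPM (0.848). Nrp2 held 45.5 CPM in PBS replicate 1, with the next PBS library at 50.2 CPM (0.87). Svep1 held 116 CPM in LPS replicate 4, with the next LPS library at 142 CPM (0.833).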

How the results depend on the processing

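With any single library left out, 1 member was called higher in each case and 0 to 2 lower. The same alternatives gave 1 to 2 VEGF genes higher, 1 to 3 Tie partners higher and 4 to 6 lower, 0 to 2 endothelial markers higher and 1 to 4 lower, 1 to 3 tip cell and Notch genes lower, 7 to 8 activation genes higher, and 0 to 3 lymphatic genes lower. DESeq2 called 2 members lower, 3 VEGF genes higher, 1 endothelial marker higher and 7 lower, and 2 tip cell genes higher. Limma-voom called 0 members lower and 1 endothelial marker higher. Voom with sample weights called 2 VEGF genes and 1 endothelial marker higher. Without both PBS replicate 1 and LPS replicate 2, 0 members were lower, 2 VEGF genes and 2 endothelial markers higher, and 1 endothelial marker, 1 tip cell gene and 0 lymphatic genes lower. Without both PBS replicate 1 and PBS replicate 4, 0 members and 1 Tie partner were higher, and 3 Tie partners, 2 tip cell genes and 0 lymphatic genes lower. The cause of these differences was not tested, beyond the smaller number of libraries.

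No pairing is stated in the labels, and same-numbered libraries shared only the replicate number of their titles. PBS replicate 4 is library NC-4 in the labels, while LPS replicate 4 is library PTB-5. For replicates 1 to 4, the correlations of the deviations from the group means were -0.13, -0.18, -0.09 and 0.21. The fit with the replicate block called 0 members lower, 1 Tie partner higher, 2 tip cell genes higher and 1 lower, and 0 lymphatic genes lower. In the paired form of the within-library differences, where the smallest possible p is 0.125, Tie1 minus Tek had an adjusted p of 0.271. Differences relative to the panel gave 0 calls with a prior count of 0.5, with RLE scaling and with Pecam1 alone as the panel, where Tek stood at -0.63 and Emcn at -0.73. Depth limits only the scarcest genes, such as Prox1.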
